A study of Mus musculus with 8 samples.

Results

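The genes described here serve the vasoactive peptides and nitric oxide of blood vessel and lymphatic endothelium: Nos3, Edn1, Ece1, Ednrb, Ace, Adm, Calcrl, Ramp2, Ramp3 and Nts. They were taken by name, as every probe set of the array whose annotation gives 1 of these 10 symbols and no other, which made 18 of 45101 probe sets and 10 of 18193 named genes. A further 2 probe sets name Ramp2 together with a second gene and were left out. Expression was measured on 8 single-colour arrays of total RNA from endothelial cells of the normal colon of untreated C57BL/6J mice, 8 weeks of age. Lymphatic endothelial cells (LEC) were on 4 arrays, and the endothelial cells of blood vessels (BEC) on the other 4. Both cell types came from the same 4 mice, of which mice 1 to 3 were labelled female and mouse 4 male, and each array holds the cells of 1 mouse. The cells were sorted by flow cytometry after staining for CD31, podoplanin and CD45.2, and the 4 pairs were selected on the quality of their RNA and amplified cDNA. The labels do not give the gates.

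Endothelium sets vessel tone by secreting short-lived signals. Endothelial nitric oxide synthase makes nitric oxide, which relaxes smooth muscle through soluble guanylate cyclase, whereas endothelin 1, released from its precursor by endothelin-converting enzyme, constricts it. Angiotensin-converting enzyme makes angiotensin II and breaks down bradykinin, and adrenomedullin acts on endothelium through the receptor CALCRL, which needs a RAMP partner protein and is required for lymphatic vessels to form normally.

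The promoters of the peptide genes Edn1 and Nts are shown because both encode secreted peptides and their signals differed in opposite directions. Of the 10 genes, 8 had a promoter window in the RefSeq annotation of GRCm38.p6. Each sequence is the 250 bases before the annotated start, from chr13:42301226-42301475 on the + strand for Edn1 and from chr10:102490419-102490668 on the - strand for Nts. Capitals mark matches to TATAAA (the TATA box), TGANTCA (AP-1), TGACGTCA (a cyclic AMP response element), GATAA (GATA factors) or ACGTG (the core of a hypoxia response element) on either strand. No 2 matches overlapped.
Edn1: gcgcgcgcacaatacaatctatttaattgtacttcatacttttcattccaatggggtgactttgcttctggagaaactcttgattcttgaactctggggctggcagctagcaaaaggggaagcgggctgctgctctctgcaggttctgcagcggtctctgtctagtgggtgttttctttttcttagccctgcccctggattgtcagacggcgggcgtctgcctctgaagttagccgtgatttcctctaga
Nts: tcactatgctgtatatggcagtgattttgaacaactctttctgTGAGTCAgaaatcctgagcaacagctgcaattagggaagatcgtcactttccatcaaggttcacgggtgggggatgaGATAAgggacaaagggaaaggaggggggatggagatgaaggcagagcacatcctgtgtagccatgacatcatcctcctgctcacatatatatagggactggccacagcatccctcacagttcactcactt
The Nts window held TGAGTCA from 207 to 201 bases before the start and GATAA from 130 to 126, both on the strand of the gene, and the Edn1 window held none of the 5 motifs. Among all 32851 promoter windows of this length, TGANTCA was found in 6.75%, GATAA in 22.6%, TATAAA in 12.4%, ACGTG in 16.6% and TGACGTCA in 1.55%. A match to these letters is a description of the window and no measured site. The windows rest on the annotated start, and bases outside them were not searched.

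Signals are given on the log2 scale, as deposited, and differences as LEC minus BEC with their standard error. Background was set on each array from the 27 probe sets against Bacillus subtilis RNA, as their 95th percentile, which was 3.43 to 4.88. Where the dimmer cell type had an array at or below that level, a ratio is written as "at least", and every value under background was first set to it. That wording concerns background alone. It does not allow for the spread between arrays, and a 95% interval can reach below such a ratio. The marker lists separated the arrays by cell type: all 6 lymphatic genes with a probe set were called higher in LEC, and 6 of 7 blood vascular genes lower. Podoplanin was a sort antigen, so its own difference only reflects the sort. Markers of other cells were unevenly spread over the arrays. The mean signal of 7 epithelial genes was 10.24 in BEC and 8.80 in LEC of mouse 3 and 7.72 in BEC of mouse 4, against 4.42 to 5.00 on the other arrays. That of 7 fibroblast genes was 9.08 and 8.14 in LEC of mice 2 and 4, against 3.52 to 5.16 elsewhere, and that of 9 enteroendocrine genes was 7.46 in BEC of mouse 4, against 2.98 to 4.54. The pan-endothelial list was lower in LEC, at 9.05 to 10.15 against 11.08 to 11.60 in BEC, with 3 of its 7 genes called lower. LEC replicate 1 was least like its group, with a median rank correlation of 0.603 to the other LEC arrays. The remaining LEC arrays stood at 0.745 to 0.746 and the BEC arrays at 0.731 to 0.816. The same 5 genes were called below with all arrays, with any 1 array left out and without both arrays of mouse 1. Without both arrays of mouse 4, only Edn1 and Nts kept their call.

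**Figure D1:**
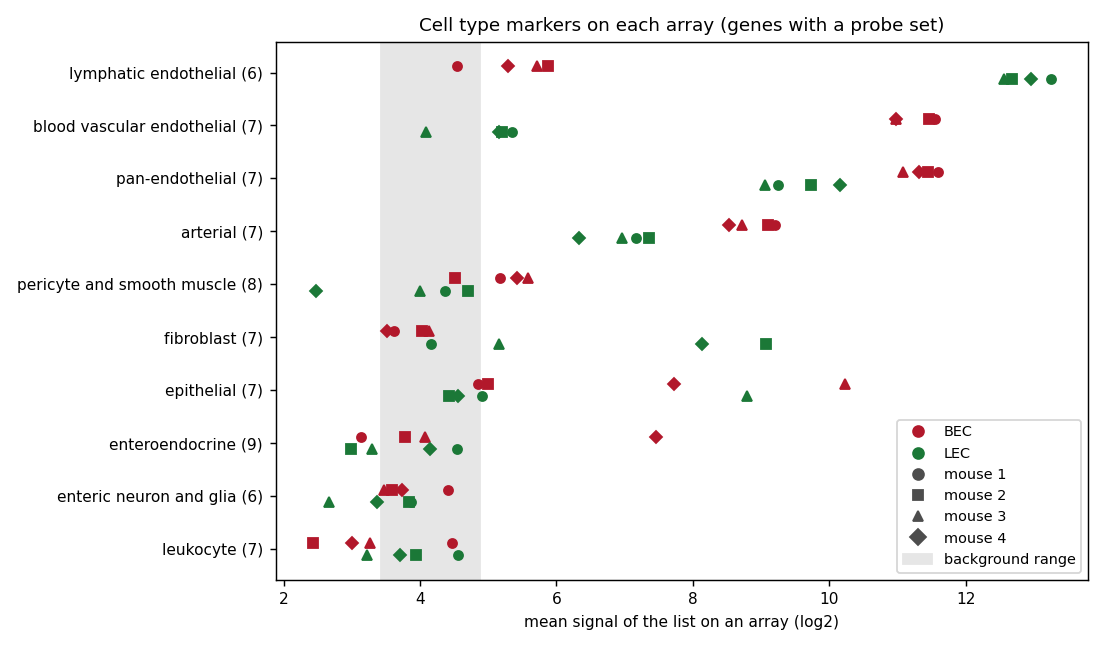
Mean log2 signal of each cell type marker list (vertical axis, number of genes with a probe set in brackets) on each array, BEC in red and LEC in green, with a symbol for each mouse; the grey band is the range of the background levels. The lymphatic list lies between 12.55 and 13.26 in LEC and the blood vascular list between 10.98 and 11.55 in BEC, while the fibroblast, epithelial and enteroendocrine lists are high on 1 to 3 arrays.

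Of the 10 genes, Nts and Ece1 were higher in LEC, Edn1, Ace and Ramp3 were lower, and 5 were not called (limma, adjusted p under 0.05 over 13259 genes). The background of these counts is 4.07% of all genes called, 1.76% higher and 2.31% lower in LEC. The groups did not overlap for 6 of the 10, 3 higher (the called genes and Adm) and 3 lower, where the background is 10.4% of all genes, 5.19% in each direction. All 10 passed the filter on dim genes, Nts and Ramp3 on 6 of 8 arrays and the others on all 8. The median difference was -0.36 over the 10 genes and 0.08 over all genes tested, and the median size of a difference, whatever its sign, was 1.30 against 0.72. Over all genes 234 were higher and 306 lower in LEC, and this split moved to 162 and 336 with equal array medians and to 127 and 279 with equal hybridisation controls, which shifted the median difference of all genes to -0.20 and -0.30.

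**Figure D2:**
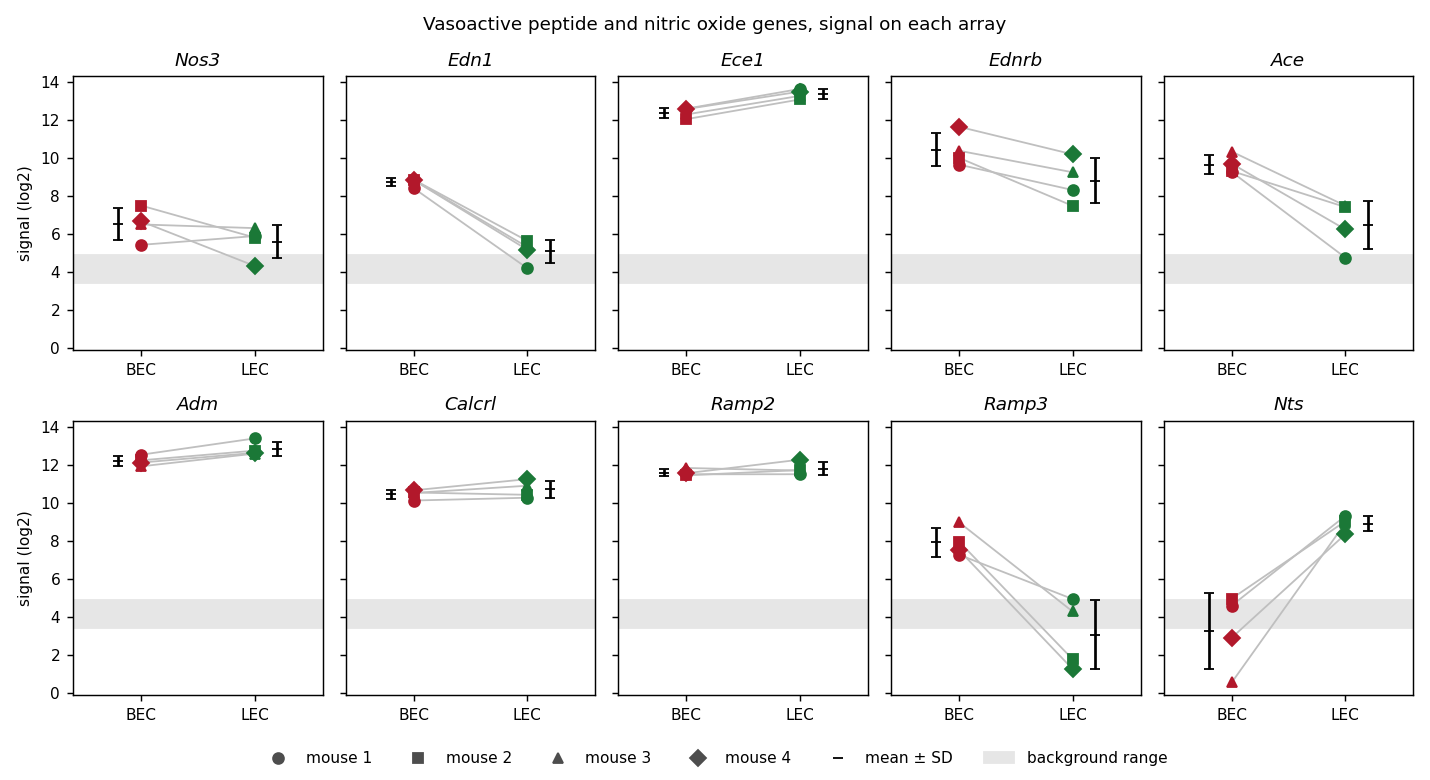
Log2 signal of the probe set taken for each of the 10 genes on each array, BEC in red and LEC in green, with grey lines joining the arrays of a mouse, black bars for the mean ± SD of 4 arrays and a grey band for the range of background levels. Edn1, Ace and Ramp3 fall and Nts and Ece1 rise from BEC to LEC in all 4 mice, while Calcrl and Ramp2 stay within 0.71 of their BEC value in every mouse.

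The endothelin 1 gene was lower in LEC. On 1451924_a_at Edn1 had signals of 8.42, 8.87, 8.85 and 8.84 in BEC of mice 1 to 4 and 4.21, 5.64, 5.32 and 5.18 in LEC. The BEC values lay within 0.45 of each other, and the groups were 2.77 apart at their nearest. In LEC the signal was above background in mice 2 to 4 and below it in mouse 1. The difference was -3.65 ± 0.58, at least 11.2-fold lower in LEC (limma, adjusted p = 0.00221). With values as deposited, the 95% interval of this difference ran from 5.27-fold to 30.1-fold lower, so it reached below 11.2-fold. Less RNA per cell and fewer cells that express a gene cannot be told apart in sorted bulk RNA, here or for any gene below.

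The enzyme that releases endothelin 1 went the other way. Ece1, endothelin-converting enzyme 1 (1455741_a_at), had signals of 12.60, 12.05, 12.30 and 12.58 in BEC and 13.64, 13.08, 13.27 and 13.50 in LEC. Within a mouse the LEC array was higher by 1.04, 1.04, 0.98 and 0.92, so the steps were nearly equal although the groups lay only 0.49 apart at their nearest. The difference was 0.99 ± 0.20, a 1.99-fold higher signal with a 95% interval of 1.47 to 2.70 (limma, adjusted p = 0.0126). It was 0.72 (adjusted p = 0.189) with equal array medians and 0.62 (adjusted p = 0.380) with equal hybridisation controls, and its call also ended with no intensity trend in limma (adjusted p = 0.385), with the mean of its probe sets (adjusted p = 0.196) and without the arrays of mouse 4 (adjusted p = 0.0817). Its other probe sets, 1434177_at and 1441423_at, gave 1.41 ± 0.45 and 0.77 ± 0.88 and were not called when every probe set was tested by itself (limma, adjusted p = 0.123 and 0.782).

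Ednrb, the endothelin B receptor, which on endothelium clears endothelin and couples it to nitric oxide release, had on 1437347_at signals of 9.65, 10.01, 10.39 and 11.65 in BEC and 8.32, 7.48, 9.25 and 10.20 in LEC. The groups overlapped, with LEC of mouse 4 above BEC of mice 1 and 2, although LEC was lower in each of the 4 mice. The difference of -1.61 ± 0.60 did not pass the threshold (limma, adjusted p = 0.203), and its 95% interval ran from -2.90 to -0.32. With the mouse as a fixed or a random block, limma's adjusted p was 0.0545 or 0.122. The probe sets 1423594_a_at and 1426314_at gave -0.81 ± 0.44 and -1.26 ± 0.61, lower in LEC in 4 of 4 mice each, and were not called either (limma, adjusted p = 0.466 and 0.392).

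Nos3, the endothelial nitric oxide synthase (1422622_at), had signals of 5.43, 7.50, 6.51 and 6.67 in BEC and 5.89, 5.82, 6.31 and 4.33 in LEC. All 8 arrays lay above background, LEC of mouse 4 only just (4.33 against 4.01). The groups overlapped, with LEC above BEC in mouse 1 and below it in the other 3 mice. The difference of -0.94 ± 0.72 did not pass the threshold (limma, adjusted p = 0.632). Its 95% interval, -2.50 to 0.62, spans a 5.65-fold lower to a 1.53-fold higher signal in LEC.

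Angiotensin-converting enzyme, an endothelial surface peptidase, was lower in LEC at both of its probe sets. On 1451911_a_at, the brighter one, Ace had signals of 9.27, 9.32, 10.34 and 9.70 in BEC and 4.76, 7.42, 7.49 and 6.25 in LEC. The groups did not overlap, and LEC of mouse 1 was below background. The difference was -3.18 ± 0.65, at least 8.86-fold lower (limma, adjusted p = 0.0122), and adjusted p = 0.0992 without the arrays of mouse 4. Its 95% interval, with values as deposited, ran from 3.43-fold to 23.8-fold lower and so reached below 8.86-fold. On 1427034_at the signals were 7.15, 9.09, 8.75 and 9.40 in BEC and 6.55, 5.87, 5.16 and 5.36 in LEC, all above background. That difference was -2.86 ± 0.66, a 7.26-fold lower signal (limma over all probe sets, adjusted p = 0.0251). In mouse 1 the probe sets were unlike each other, at -4.51 on the brighter and -0.60 on the dimmer one.

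**Figure D3:**
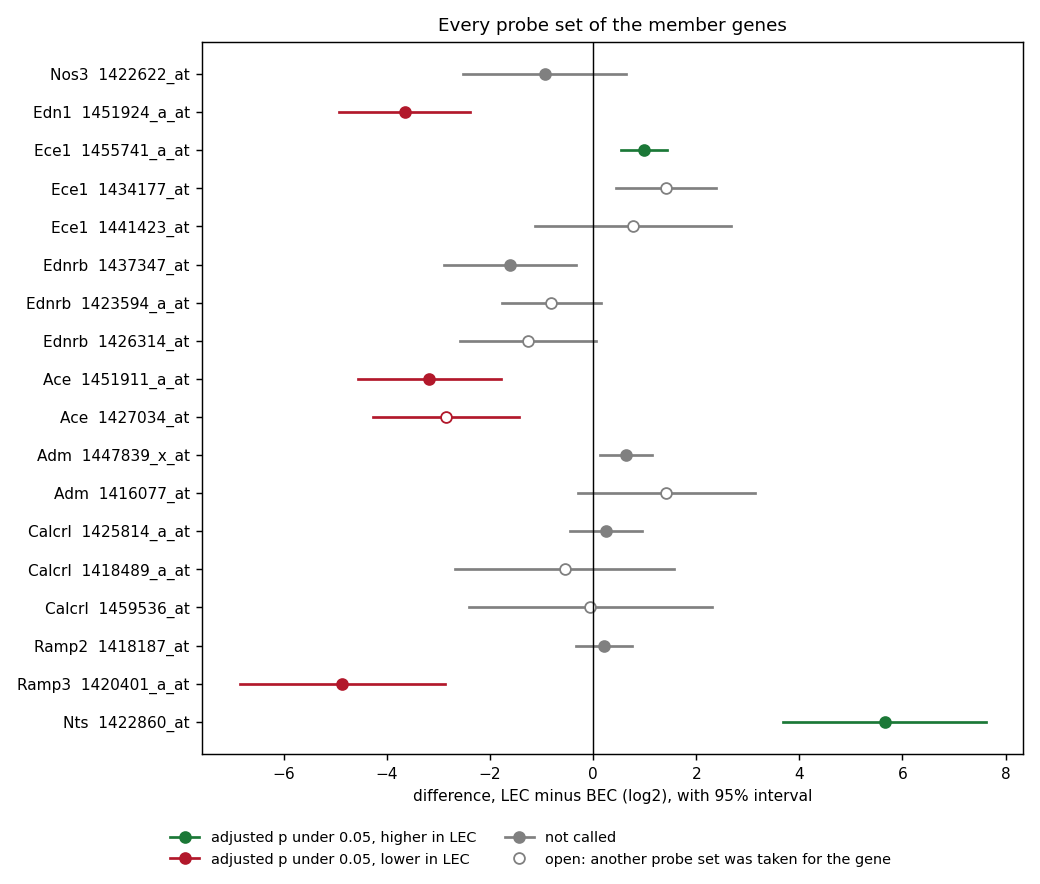
Difference between LEC and BEC (log2, horizontal axis) for all 18 probe sets, each tested by itself, with its 95% interval; green and red mark adjusted p under 0.05, and open circles mark probe sets not taken for the gene. The 6 called probe sets are those of Edn1, Ece1 (1 of 3), Ace (2 of 2), Ramp3 and Nts. The intervals of the dimmer Calcrl probe sets and of the dimmest Ece1 probe set span 0 widely.

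When every probe set was tested by itself, 6 of the 18 were called, 2 higher and 4 lower in LEC, against 3.7% of all 23980 probe sets tested, 1.61% higher and 2.09% lower. Both probe sets of Ace were among them, and no gene had probe sets called in opposite directions.

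In the adrenomedullin system the ligand, the receptor and Ramp2 were bright in both cell types and not called, and Ramp3 fell in LEC. Adm, which encodes adrenomedullin, had signals of 12.53, 12.24, 11.92 and 12.12 in BEC and 13.39, 12.75, 12.59 and 12.63 in LEC on 1447839_x_at. The groups were apart by 0.06 at their nearest and LEC was higher in 4 of 4 mice. The difference of 0.64 ± 0.24 did not pass the threshold (limma, adjusted p = 0.200, and 0.0544 or 0.121 with the mouse as a fixed or a random block). By the maker's naming, the _x suffix marks a probe set whose probes may also match other sequences. The other probe set, 1416077_at, was much dimmer, at 4.33 to 5.81 in BEC and 5.22 to 8.05 in LEC, and gave 1.42 ± 0.80 (limma over all probe sets, adjusted p = 0.482).

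Calcrl, the receptor itself, had signals of 10.13, 10.55, 10.52 and 10.66 in BEC and 10.27, 10.43, 10.90 and 11.25 in LEC on 1425814_a_at, with overlapping groups. The difference of 0.25 ± 0.33 did not pass the threshold (limma, adjusted p = 0.813), and the 95% interval allows LEC over BEC ratios of 0.727 to 1.94. Its dimmer probe sets ranged from 4.79 to 9.58 (1418489_a_at) and from 1.47 to 6.64 (1459536_at) over the 8 arrays, and neither was called (limma, adjusted p = 0.878 and 0.992). Ramp2, the partner that makes CALCRL an adrenomedullin receptor, had on 1418187_at signals of 11.51, 11.45, 11.84 and 11.56 in BEC and 11.51, 11.73, 11.70 and 12.27 in LEC, again with overlap. Its difference was 0.21 ± 0.25 (limma, adjusted p = 0.778), with ratios of 0.796 to 1.69 within the 95% interval. The signs of the Calcrl and Ramp2 differences turned with equal array medians (-0.03 and -0.06) and with equal hybridisation controls (-0.12 and -0.16).

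Ramp3, the alternative partner, which also forms an adrenomedullin receptor with CALCRL, was lower in LEC. On 1420401_a_at its signals were 7.27, 7.96, 8.98 and 7.52 in BEC and 4.94, 1.77, 4.28 and 1.25 in LEC. The LEC arrays of mice 2 and 4 were below background, those of mice 1 and 3 were above it, and the groups were 2.33 apart at their nearest. The difference was -4.87 ± 0.92, at least 11.7-fold lower in LEC (limma, adjusted p = 0.00707), and adjusted p = 0.0528 without the arrays of mouse 4. With values as deposited, the 95% interval of this difference ran from 7.45-fold to 115-fold lower, so it reached below 11.7-fold.

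Nts, which encodes the precursor of neurotensin and neuromedin N, peptides known from gut endocrine cells and neurons and from lymphatic endothelium, had the widest difference of the 10 genes. On 1422860_at its signals were 4.60, 4.96, 0.55 and 2.91 in BEC and 9.31, 9.03, 8.94 and 8.35 in LEC. LEC arrays lay within 0.96 of each other. BEC of mice 3 and 4 were below background and those of mice 1 and 2 above it, mouse 1 only just (4.60 against 4.52). The difference was 5.65 ± 0.91, at least 27.9-fold higher in LEC (limma, adjusted p = 0.00228), and its size exceeded that of 99.2% of the genes tested. Its 95% interval, with values as deposited, ran from 12.9-fold to 196-fold higher and so reached below 27.9-fold. Of the 9 enteroendocrine markers, 5 had a higher and 4 a lower mean in LEC. Scg2, Insl5 and Cck, among the 5, did not pass the filter. Of the 6 tested 1 was called, Chgb, lower in LEC (5.43 to 13.67 in BEC and 0.80 to 2.96 in LEC, limma, adjusted p = 0.00222). An unadjusted p under 0.05 (limma) was found for 3 of the 6, Chga, Chgb and Neurod1, all lower in LEC. Chga had a mean of 8.88 in BEC and 4.06 in LEC (limma, adjusted p = 0.0810). Pyy was above background on all 4 LEC arrays (5.61 to 9.04, against 3.48 to 9.58 in BEC) and was not called (limma, adjusted p = 0.868). The summed linear signal of the list was 156.3 to 19555 in BEC and 138.5 to 861.5 in LEC. The part of such cells in the Nts signal was not tested.

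Of the 8 pericyte and smooth muscle markers, 1 was called, Rgs5, which was lower in LEC like Edn1, Ace and Ramp3. The summed linear signal of the 8 markers was 829 to 1519 in BEC and 126.7 to 294.5 in LEC. Rgs5 gave 56.9% to 83.5% of it in BEC, at 9.04 to 10.04 in BEC and -0.97 to 5.55 in LEC (limma, adjusted p = 0.00849). The contractile genes Acta2 (6.45 to 7.89 in BEC, 3.39 to 5.88 in LEC), Tagln (5.30 to 7.15 and -0.01 to 7.33) and Myh11 (5.72 to 6.90 and 4.24 to 6.66) were not called. Acta2 was lower in LEC in 4 of 4 mice without overlap of the groups, as in 10.4% of all genes (-2.15 ± 0.74, limma, adjusted p = 0.155). Tagln and Myh11 were higher in LEC in 2 and 1 of the 4 mice. Of the 5 markers tested, 2 had an unadjusted p under 0.05 (limma), Acta2 and Rgs5. The receptor gene Pdgfrb ran the other way, with 2.54 to 3.80 in BEC and 3.46 to 6.16 in LEC and a higher value in LEC in 4 of 4 mice. It was above background on 2 of the 4 BEC arrays and was not called (1.81 ± 0.87, limma, adjusted p = 0.365). Cspg4, Des and Cnn1 did not pass the filter. The part of these cells in the BEC signals was not tested.

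Further genes of the same pathways were read from lists of 85 genes, of which 78 had a probe set of their own and 56 passed the filter. The call was reached by 4 genes higher and 3 lower in LEC, against the background of 1.76% and 2.31%, and the lists' median difference was -0.27 beside 0.08 for all genes. They fell into the nitric oxide, kinin and adrenomedullin lists. No gene was called of 2 tested in the endothelin list, 6 in the neurotensin list, 5 in the natriuretic peptide list and 7 among other vasoactive peptides, where 0, 1, 2 and 1 had an unadjusted p under 0.05 (limma). The brightest gene of each of those lists was Ece2 (difference -2.15 ± 1.14), the precursor-cleaving protease gene Furin (-0.97 ± 0.46), the natriuretic peptide receptor gene Npr2 (-0.76 ± 0.58) and the PACAP receptor gene Adcyap1r1 (0.54 ± 0.81), with adjusted p of 0.362 to 0.844 (limma).

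**Figure D4:**
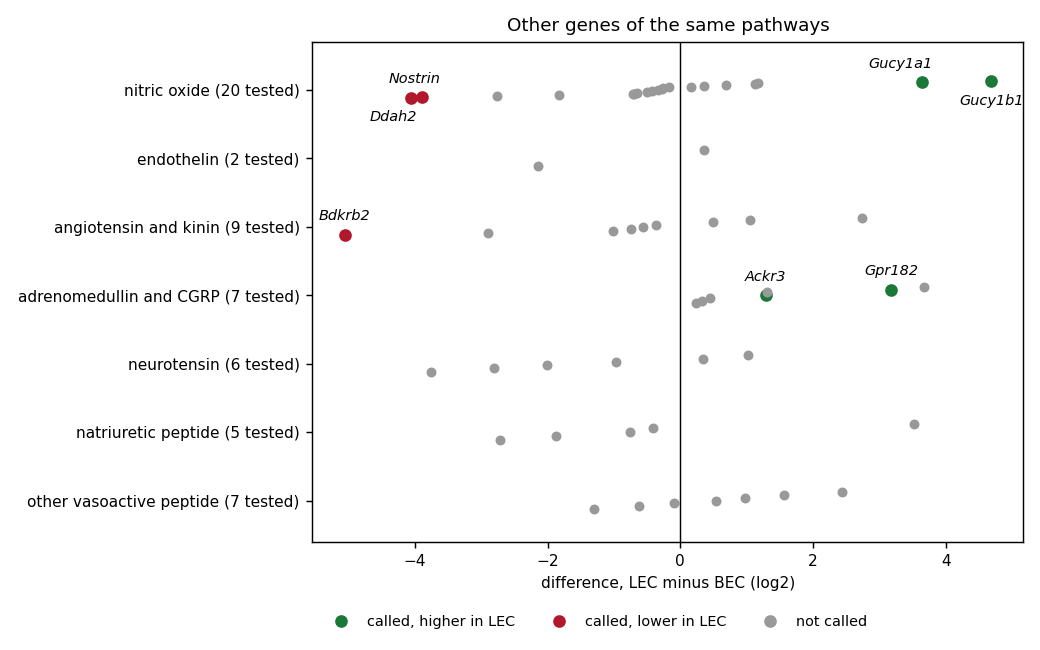
Difference between LEC and BEC (log2, horizontal axis) of the 56 other pathway genes that passed the filter, by list; green and red points are genes called higher and lower in LEC and grey points were not called. Gucy1a1, Gucy1b1, Ackr3 and Gpr182 lie to the right and Nostrin, Ddah2 and Bdkrb2 to the left, and 49 genes were not called.

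Both tested subunit genes of the nitric oxide receptor were higher in LEC. Gucy1a1 and Gucy1b1 encode the alpha and beta subunits of soluble guanylate cyclase, the enzyme that nitric oxide activates to make cyclic GMP. Gucy1a1 had signals of 7.48, 8.66, 7.30 and 8.47 in BEC and 12.35, 11.95, 11.05 and 11.13 in LEC. The groups were 2.39 apart at their nearest, and the difference was 3.64 ± 0.46, a 12.5-fold higher signal (limma, adjusted p = 3.44e-04). Gucy1b1 had 4.48, 5.92, 5.32 and 5.14 in BEC and 9.20, 10.82, 9.61 and 9.95 in LEC. It was at least 25.5-fold higher (4.68 ± 0.58, limma, adjusted p = 3.14e-04). Without BEC replicate 1, the BEC array below background, Gucy1b1 was 21.7-fold higher. Every other probe set of both genes was called in the same direction (3.25 and 3.37 for Gucy1a1, 6.11 for Gucy1b1, with limma's adjusted p of 0.00145 to 0.0123 over all probe sets). Fibroblast markers were also brighter on some LEC arrays, with a list mean of 4.16, 9.08, 5.16 and 8.14 in LEC of mice 1 to 4 and a summed linear signal of 201.4 to 372.5 in BEC and 338.3 to 7308 in LEC, although none of its 6 genes tested was called (limma; 4 had an unadjusted p under 0.05). Gucy1b1 was highest in LEC of mice 2 and 4, where that list was highest, and Gucy1a1 in LEC of mice 1 and 2. The part of fibroblasts in these signals was not tested.

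The other 2 nitric oxide genes called, Ddah2 and Nostrin, were lower in LEC, and 16 of the 20 tested were not called. Among those, and picked after their values were seen, were the synthase-binding proteins Cav1 (-0.26 ± 0.22, limma, adjusted p = 0.657) and Nosip (0.36 ± 0.70, limma, adjusted p = 0.884). Ddah2, which encodes an enzyme that degrades the synthase inhibitor asymmetric dimethylarginine, had signals of 7.94, 6.52, 7.43 and 7.64 in BEC and 3.60, 1.81, 4.92 and 2.97 in LEC, where mouse 3 alone was above background. It was at least 7.22-fold lower (-4.06 ± 0.80, limma, adjusted p = 0.00986), and adjusted p = 0.0920 without the arrays of mouse 4. Its relative Ddah1, picked likewise, was bright in both, at 9.27 ± 0.46 in BEC and 9.43 ± 1.02 in LEC (SD, n = 4; limma, adjusted p = 0.939). Nostrin, a trafficking protein that binds the synthase, had 7.02, 7.64, 8.44 and 7.74 in BEC and 4.78, 6.22, 0.71 and 3.56 in LEC, with mouse 2 alone above background. It was at least 7.86-fold lower, just past the threshold (limma, adjusted p = 0.0491). Nostrin lost its call in 14 of 20 alternatives, among them the mouse as a fixed block (limma, adjusted p = 0.0803). Others of the 14 were leaving out any 1 array but LEC replicate 2 (limma, adjusted p = 0.0535 to 0.136).

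Of 9 angiotensin and kinin genes tested, 1 was called. Bdkrb2, the bradykinin receptor through which kinins stimulate endothelium, had signals of 9.02, 8.51, 9.05 and 9.19 in BEC and 4.38, 3.19, 2.64 and 5.35 in LEC. The LEC arrays of mice 1 to 3 were below background. It was at least 20.3-fold lower in LEC (-5.05 ± 0.71, limma, adjusted p = 8.62e-04), and its other probe set was also lower (-3.63 ± 0.89, limma over all probe sets, adjusted p = 0.0379).

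Of 7 other genes tested from the adrenomedullin and CGRP list, 2 were called and both rose in LEC. Ackr3 encodes an atypical receptor that takes up CXCL12 and adrenomedullin, and Gpr182 a related receptor of endothelium, whose ligand was not tested here. Ackr3 had 11.78, 11.46, 11.48 and 12.31 in BEC and 13.22, 13.02, 12.80 and 13.14 in LEC, a 2.44-fold higher signal (1.29 ± 0.24, limma, adjusted p = 0.00586). Gpr182 had 4.47, 7.75, 7.21 and 6.67 in BEC and 9.91, 10.38, 8.97 and 9.58 in LEC, at least 9.0-fold higher (3.18 ± 0.69, limma, adjusted p = 0.0178). Without BEC replicate 1, the BEC array below background, the Gpr182 signal was 5.64-fold higher in LEC. Neither gene was called with equal array medians (adjusted p = 0.0981 and 0.0562), with equal hybridisation controls (adjusted p = 0.260 and 0.145) or with no intensity trend (adjusted p = 0.253 and 0.0578), and Gpr182 was not called without LEC replicate 2 (adjusted p = 0.0657) or without the arrays of mouse 4 (adjusted p = 0.103).

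The genes whose pattern over the 8 arrays came nearest to each member were found by the root mean square distance between log2 values, each gene centred on its own mean. For Edn1 they were Cd34, a surface glycoprotein (distance 0.39), the cadherin gene Cdh13 (0.43) and Dennd5b (0.45), against a median of 2.19 over all genes. For Nts they were Pdlim3 (0.51), 4833422C13Rik (0.80) and Srd5a3 (0.82), against a median of 3.22. For Ramp3 they were Crispld1 (0.72), the protocadherin gene Pcdh1 (0.78) and Rsad2 (0.85), and for Ace they were Sipa1l2 (0.42), Zbtb42 (0.52) and the chemokine gene Cxcl9 (0.54). Ece1 lay nearest to vimentin (Vim, 0.11), Scd2 (0.15) and Rhoj (0.18). Calcrl and Ramp2 shared Tmsb4x and Pnrc2 among their nearest 3 genes, at distances of 0.13 to 0.18, beside Ccz1 for Calcrl and Lamp1 for Ramp2. The nearest genes were Plekha8, Camta2 and Lta4h for Nos3 (0.23 to 0.38), Cux1, Fryl and Insr for Ednrb (0.37 to 0.44) and Wfdc1, Tpm4 and Laptm4a for Adm (0.16 to 0.18). These distances describe 8 arrays that share their mice and their scaling, and members with a small difference have small distances to many genes.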

How the data were processed

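The deposited table holds 1 column of log2 values per array, made by the authors with MAS5 per the submitters' processing notes (version not given in the sources used here). From the values, each array was scaled to a 2% trimmed mean of 100.04 on the linear scale, with no centring per gene. Values were used as deposited. Probe sets were named from the platform annotation of 2016, updated through the gene number (34741 of 34945 probe sets with 1 gene). A gene was represented by its brightest probe set on average, and dim genes, those not over the 40th percentile of an array in 4 or more of the 8, were dropped, which left 13259 genes. They were tested in limma 3.58.1 (R 4.3.3) (eBayes with an intensity trend, cell type as the only term, two-sided, Benjamini-Hochberg), after the code was tested on simulated data. A second fit tested 23980 probe sets singly. The number of arrays limits the precision. Replicate numbers pair the samples because the series design states animal-matched pairs, and same-mouse deviations correlated at 0.0510 to 0.181. Named were all members, every called gene of the pathway lists, the brightest tested gene of a list with none called, and the 3 nearest genes of each member. The members and lists were chosen with earlier results of these data known. The alternatives with equal hybridisation controls and without mouse 1, and the background level, were chosen after seeing the data. Mice are separate animals, so p-values hold the spread between mice, amplifications and arrays together.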

Additional observations from a re-analysis of the deposited data

Results flagged for a closer look

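Edn1 in BEC replicate 1 was 8.42, apart from the other BEC arrays at 8.84 to 8.87 by a gap of 0.953 of the group's range. It was the only one of 50 groups of 4 arrays tested (the 18 probe sets of the members and the 7 called pathway genes in both cell types) to pass Dixon's 95% limit, and chance passes about 5% of such groups.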

How the results depend on the processing

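Edn1 and Nts kept their direction and call under all alternatives run on them (21 and 20), Ace under 20 of 21 and Ramp3 under 19 of 20, each lost without both arrays of mouse 4, and Ece1 under 16 of 21. Nts and Ramp3 could not be tested under the filter on all 8 arrays. Nos3, Ednrb and Adm were called under none of 21. Members higher in LEC numbered 1 in place of 2 with equal array medians, with the filter on all 8 arrays, with the mean of all probe sets, with no intensity trend, without both arrays of mouse 4 and with equal hybridisation controls, and members lower numbered 1 in place of 3 without both arrays of mouse 4. Leaving out 1 array gave 2 members higher and 3 lower each time. Pathway genes higher numbered 2 in place of 4 with equal array medians, no intensity trend and equal hybridisation controls. Those lower numbered 5 in place of 3 with the mean of all probe sets. They numbered 0 under the filter on all 8 arrays, which Nostrin, Ddah2 and Bdkrb2 did not pass, so they could not be tested there. Leaving out 1 array gave 3 to 4 higher and 2 to 3 lower. Over all genes, 133 higher and 178 lower were called under the filter on all 8 arrays (6932 genes), 116 and 152 without both arrays of mouse 4, and 127 higher with equal hybridisation controls; leaving out 1 array gave 156 to 227 higher and 180 to 329 lower, with the counts of 180 and 200 lower without BEC replicates 2 and 4. With the mouse as a fixed block 236 were higher and 298 lower. Among the members and the called pathway genes, this block ended no call but that of Nostrin. With the mouse as a random block 303 were higher and 394 lower, and Nostrin kept its call (limma, adjusted p = 0.0316). The sign of Calcrl turned to -0.028 with equal array medians, -0.12 with the mean of its probe sets and -0.12 with equal hybridisation controls, and that of Ramp2 to -0.061 and -0.16 with equal medians and controls; the cause was not tested. Signals near an array's background level bound the fold differences of Edn1, Ace, Ramp3 and Nts from below. Those bounds do not allow for the spread between arrays.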

Other observations

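Klf2 and Calcb, from the pathway lists, were picked after their values were seen. Klf2, a transcription factor induced by fluid flow, had signals of 9.06, 8.43, 9.37 and 9.65 in BEC and 7.18, 6.94, 7.57 and 7.51 in LEC. The groups did not overlap, as in 10.4% of all genes tested, and the difference of -1.83 ± 0.49 missed the threshold (limma, adjusted p = 0.0560). Calcb, a gene of the CGRP peptides, ranged from -0.05 to 6.73 in BEC and from 4.41 to 9.71 in LEC, where mouse 3 was highest, and was not called (limma, adjusted p = 0.259).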
